A study of Mus musculus with 4 samples.

Results

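The nuclear genes of the mitochondrial respiratory chain were followed from mouse embryonic stem (ES) cells into embryoid bodies (EBs) treated with retinoic acid (RA) or bexarotene. Genes were taken by symbol, from names that start with Nduf, Uqcr or Cox and a digit, plus Sdha, Sdhb, Sdhc, Sdhd, Cycs and Cyc1. A probe set, the group of probes that reports 1 transcript on the array, was kept where its annotation gave a single symbol. The rule found 96 probe sets for 82 genes, out of 21789 probe sets and 19938 genes with a single symbol. Of the 82 genes, 34 encode subunits of complex I, 4 of complex II, 9 of complex III and 18 of complex IV, 1 is cytochrome c, 1 is the supercomplex factor Cox7a2l and 15 are assembly factors whose names fit the rule. A gene with several probe sets is given by the one with the highest mean signal.

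The chain passes electrons from NADH and succinate to oxygen and pumps protons across the inner mitochondrial membrane, which drives ATP synthase. Complex I oxidizes NADH, complex II oxidizes succinate, complex III passes the electrons to cytochrome c, and complex IV, cytochrome c oxidase, reduces oxygen. Pluripotent stem cells are known to use glycolysis, and oxidative capacity is known to be remodelled as they differentiate. Skeletal and heart muscle use isoforms of several complex IV subunits of their own.

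The study asked how bexarotene, a synthetic agonist of the retinoid X receptor, directs ES cells toward skeletal muscle, and used RA, the ligand of the retinoic acid receptors, alongside. Whole-transcript arrays measured 4 RNA samples, 1 per condition: mouse ES cells at day 0, EBs at day 7 without treatment, EBs at day 7 with RA, and EBs at day 7 with bexarotene. The article names the cells as the D3 line, and EBs were formed for 2 days in hanging drops and kept for 5 days in suspension. Bexarotene was given at 50 nM, while RA was given at 5 µM according to the sample labels and at a nanomolar dose according to the article, so the doses of the ligands differ. Since each condition is a single array, the replicate error is unknown, so no p-value, standard deviation or interval can be given, and a difference is the gap between 2 log2 signals. "Higher" and "lower" below mean on these arrays, and a 1.5-fold gap (0.585 on the log2 scale) is the threshold used. Where 4 values stand in a row, they follow the order ES cells, untreated EBs, RA EBs, bexarotene EBs.

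The array medians lay between 6.66 and 6.69 on the log2 scale over 35556 probe sets. All 8 ES cell markers were lower in untreated EBs than on the ES cell array. Their median difference was -3.01. Summed and taken to log2, they gave 14.55 in ES cells, 12.15 in untreated EBs, 12.85 in RA EBs and 12.58 in bexarotene EBs, and the 5 neural markers gave 9.88, 10.60, 11.72 and 11.52. Visceral endoderm markers gave 10.04, 11.66, 12.05 and 11.72 over 5 genes, and fibroblast markers 9.59, 10.32, 9.86 and 9.76 over 6 genes. The members did not all follow their sums. In untreated EBs against ES cells, 1 neural marker, Tubb3, was lower at -0.52. Among fibroblast markers 1 was lower, Thy1 at -0.78, while Postn was 3.88 higher. These are bulk samples, so fewer cells of a type and less RNA per cell cannot be told apart, and the part of the changing cell mixture in the results below was not tested.

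The respiratory chain genes were among the brighter genes of every array. Their median stood at 9.73 (log2) in ES cells, 9.35 in untreated EBs, 9.46 in RA EBs and 9.33 in bexarotene EBs, against 7.20, 7.30, 7.28 and 7.25 over all genes. Signals ran from 4.55 for Cox7b2, a testis isoform, to 12.56 for Cox6c on the ES cell array. The 15 assembly factors, which build the complexes without staying in them, had a lower median of 7.87 in ES cells. Cox17, the copper chaperone of complex IV, lay below the array median on all 4 arrays at 6.58, 6.27, 6.30 and 6.21. So did Ndufaf5, a complex I assembly factor, at 6.50, 6.16, 6.01 and 6.19, along with Cox7b2 and the muscle isoform Cox8b. A probe set this dim may hold little signal of its gene, and brightness depends on the probes, so levels of different genes are not amounts of RNA to be ranked.

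Untreated EBs carried lower signals than ES cells across most of the chain. Of 82 genes, 67 (81.7%) were lower in EBs, against 56.2% of all genes, and the median difference was -0.20 against -0.04 over all genes and 0.0006 over the 10742 genes that reached the array median on all arrays. At 1.5-fold, 5 members were lower, against 8.52% of all genes, and 0 were higher, against 11.0%. At 1.2-fold (0.263 on the log2 scale), 35 members were lower, against 22.7% of all genes, and 2 were higher, against 21.2%. The shift was therefore broad and small, with a share past 1.5-fold near that of all genes and a share past 1.2-fold above it. Among all genes ordered by this difference, 35 members fell in the lowest quartile and 2 in the highest.

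**Figure D1:**
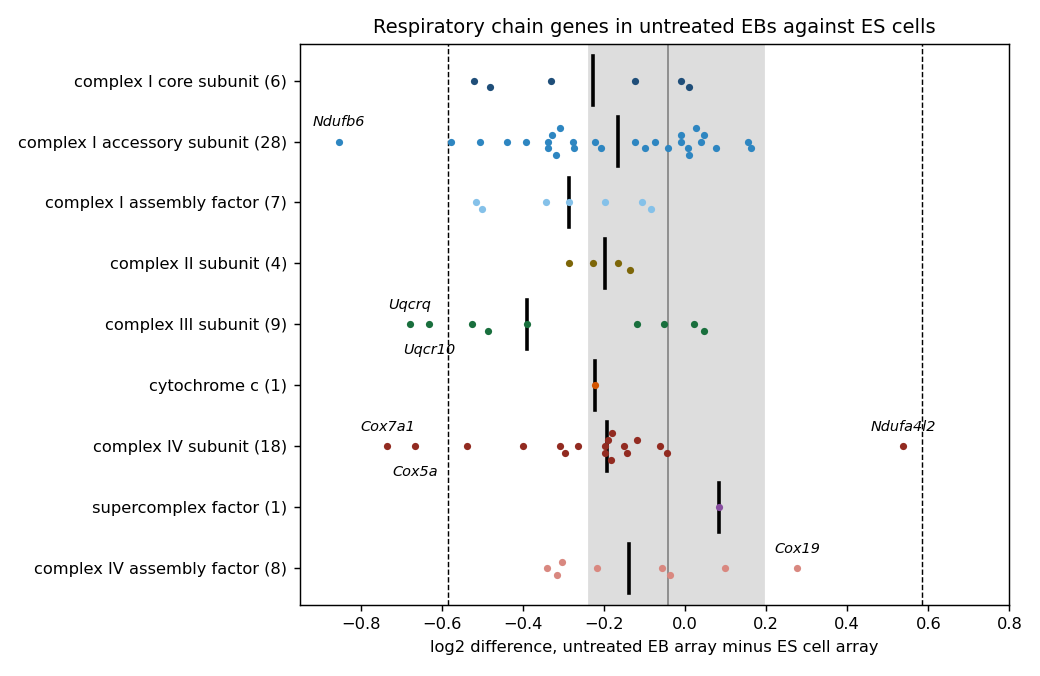
Difference in log2 signal between untreated EBs and ES cells (horizontal axis) for each respiratory chain gene, grouped by complex (vertical axis), with 1 point per gene and a black bar at the median of each group (the number of genes stands in brackets). The grey line and band are the median and the middle range between quartiles over all genes and dashed lines mark 1.5-fold. The 5 genes left of the lower dashed line are Ndufb6, Cox7a1, Uqcrq, Cox5a and Uqcr10, and most points lie below 0.

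Ndufb6, an accessory subunit in the membrane arm of complex I, had the largest drop of the 82 genes. It stood at a log2 signal of 11.12 in ES cells, 10.26 in untreated EBs, 10.27 in RA EBs and 10.21 in bexarotene EBs. The ES cell array stood alone, 1.81-fold above untreated EBs, while the 3 EB arrays lay together.

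Cox7a1, the heart and muscle isoform of complex IV subunit VIIa, measured 8.83 in ES cells, 8.10 in untreated EBs, 8.11 in RA EBs and 7.82 in bexarotene EBs, which makes untreated EBs 1.66-fold lower than ES cells. Cox5a, a subunit on the matrix side of complex IV, measured 10.44, 9.77, 9.86 and 9.73 in the same order, and was 1.59-fold lower in untreated EBs. Both genes were highest in ES cells and lowest with bexarotene.

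Uqcrq and Uqcr10, small subunits of complex III, complete the set past 1.5-fold. Uqcrq measured 9.74 in ES cells, 9.06 in untreated EBs, 9.02 in RA EBs and 8.80 in bexarotene EBs, a 1.60-fold gap between ES cells and untreated EBs. Uqcr10 measured 9.64, 9.01, 9.03 and 8.85, a 1.55-fold gap. The members just short of the threshold were Ndufs5, an accessory subunit of complex I, at 1.49-fold lower and Cox4i1, the common isoform of complex IV subunit IV, at 1.45-fold lower.

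Complex III had the lowest median of the complexes, -0.39 over 9 genes, and its members divided. Uqcrc1, a core protein, measured 11.55 in ES cells, 11.02 in untreated EBs, 11.16 in RA EBs and 11.16 in bexarotene EBs, a difference of -0.53 in untreated EBs. Cyc1, the cytochrome c1 subunit, measured 11.21, 10.82, 10.78 and 10.79, a difference of -0.39. Uqcr11 measured 9.73, 9.24, 9.01 and 8.86. The other core protein, Uqcrc2, was close to level at 11.45, 11.50, 11.52 and 11.51, and it had the highest difference of complex III at 0.05. Partners in 1 complex thus differed in size and in sign of difference.

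In complex I, 5 of the 6 core subunits measured here and 20 of the 28 accessory subunits were lower in untreated EBs, against 56.2% of all genes. Ndufs1, a core subunit that holds iron-sulfur clusters of the NADH-oxidizing arm, measured 9.73 in ES cells, 9.21 in untreated EBs, 9.03 in RA EBs and 9.04 in bexarotene EBs. Ndufv1, the core subunit that binds NADH, measured 10.22, 9.73, 9.84 and 9.77. The core subunits Ndufs3 and Ndufs7 barely moved, with differences of 0.01 and -0.01. Among accessory subunits, Ndufa2 had the highest difference, at 9.21 in ES cells, 9.37 in untreated EBs, 9.51 in RA EBs and 9.50 in bexarotene EBs. All 7 complex I assembly factors were lower in untreated EBs and on the other 2 EB arrays, from -0.08 for Ndufaf3 to -0.51 for Ndufaf6 in untreated EBs. Of all genes, 41.7% were lower on all 3 EB arrays.

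Complex II, which is also an enzyme of the citric acid cycle, was lower in EBs in all 4 subunits, by less than 1.5-fold. Over all genes, 41.7% were lower on all 3 EB arrays. Sdha, the flavoprotein, measured 10.61 in ES cells, 10.48 in untreated EBs, 10.48 in RA EBs and 10.52 in bexarotene EBs. Sdhb, the iron-sulfur subunit, measured 9.78, 9.50, 9.41 and 9.34, the widest gap of the complex at -0.29 in untreated EBs. The membrane anchors Sdhc and Sdhd differed by -0.17 and -0.23 in untreated EBs. The ES cell array was the highest for each of these 4 genes.

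Cycs, the cytochrome c of somatic cells that also acts in apoptosis, measured 11.94 in ES cells, 11.72 in untreated EBs, 11.65 in RA EBs and 11.77 in bexarotene EBs. Its 3 probe sets did not share a direction in untreated EBs against ES cells, with differences from -0.22 to 0.04. The brighter ones differed by -0.22 and -0.10. The one at 0.04 was dim, at 5.49 in ES cells and 5.53 in untreated EBs, below the array median. Cycs and many Cox and Nduf genes have processed pseudogenes of nearly the same sequence, so some probe sets may read several copies and their differences are uncertain. Over the 12 members with several probe sets, the median spread of the difference between the probe sets of 1 gene was 0.04 in this comparison. The widest was 0.26, that of Cycs with its dim probe set.

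Of the 18 complex IV subunits, 17 were lower in untreated EBs than on the ES cell array, against 56.2% of all genes, with a median of -0.19. The exception was Ndufa4l2, a paralog of Ndufa4 known as a hypoxia-responsive gene, which measured 6.77 in ES cells, 7.31 in untreated EBs, 7.44 in RA EBs and 7.27 in bexarotene EBs. All 3 EB arrays were above the ES cell array for this gene, by 1.45-fold in untreated EBs, at a level near the array median. Of the 8 complex IV assembly factors, Cox19, a copper-handling factor, and Cox20, a chaperone of the COX2 subunit, were higher in untreated EBs, by 0.28 and 0.10, and the rest were lower by 0.04 to 0.34.

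Across the 3 EB arrays the pattern held, although they share the single ES cell array. Lower on all 3 EB arrays than on the ES cell array were 59 of 82 genes (72.0%), against 41.7% of all genes. Higher on all 3 were 9 genes (11.0%), against 32.8% of all genes. The 59 genes included 14 of 18 complex IV subunits, 22 of 34 complex I subunits, 6 of 9 complex III subunits and the 4 subunits of complex II.

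**Figure D2:**
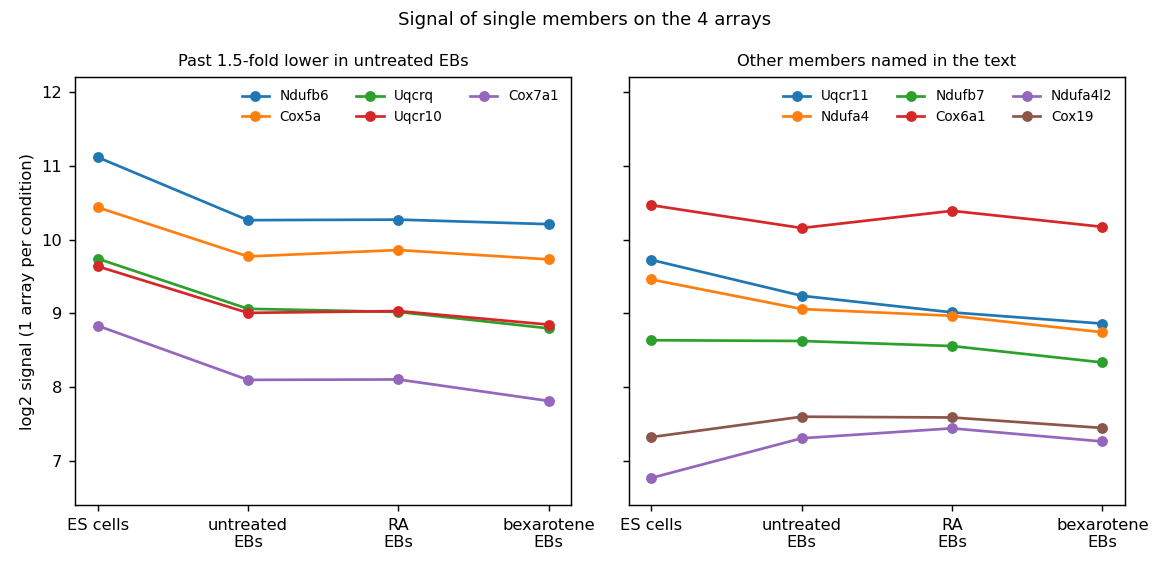
Log2 signal (vertical axis) on the ES cell, untreated EB, RA EB and bexarotene EB arrays (horizontal axis) for the 5 members past 1.5-fold (left) and 6 further members named in the text (right), with points joined by lines for each gene as a guide for the eye, since each condition is 1 array. Ndufb6, Cox7a1, Uqcrq, Cox5a and Uqcr10 step down from ES cells to all 3 EB arrays.

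The chain in RA EBs lay close to that in untreated EBs. At 1.5-fold, 0 members were higher and 0 lower, against 2.07% and 2.22% of all genes, and at 1.2-fold the counts were again 0 and 0, against 9.38% and 8.94%. The median difference over the 82 genes was -0.0017, with 40 genes above 0 and 42 below. The sign of this median is not settled, since it was 0.025 with quantile normalization, 0.032 with loess and 0.0074 without the assembly factors.

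The gene with the highest difference under RA was Cox6a1, the common isoform of complex IV subunit VIa, at 10.16 in untreated EBs and 10.39 with RA. Next came its muscle isoform Cox6a2 and the assembly factor Cox20, each 0.21 higher, then the complex I subunits Ndufv3 at 0.19 and Ndufa12 at 0.18. The lowest was Cox6b2, the testis isoform of subunit VIb, at 9.16 in untreated EBs and 8.93 with RA. It was followed by Uqcr11 at -0.23, Ndufa1, a complex I subunit needed for assembly, at -0.21, Uqcrfs1, the Rieske iron-sulfur protein of complex III, at -0.20 and Ndufa7 at -0.18. By the probe set chosen for each gene, all members thus lay between -0.23 and 0.23 on the log2 scale, less than 1.2-fold from untreated EBs. Over the 12 members with several probe sets, the median spread between probe sets was 0.03 in this comparison and the widest was 0.33. The widest was that of Cycs, whose dim probe set, not the one chosen, lay at -0.40 with RA.

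The chain in bexarotene EBs also lay close to that in untreated EBs, with few members past 1.2-fold. At 1.5-fold, 0 members were higher and 0 lower than in untreated EBs, against 1.48% and 2.15% of all genes. At 1.2-fold, 0 were higher, against 7.25% of all genes, and 5 were lower, against 9.09%, a share of the 82 genes below that background. The median difference was -0.04, against -0.01 over all genes and -0.05 over the genes that reached the array median on all arrays. It was -0.0138 with quantile and -0.0135 with loess normalization. This comparison and the RA comparison share the untreated array.

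Uqcr11, a small subunit of complex III, had the largest difference with bexarotene, at 9.24 in untreated EBs, 9.01 in RA EBs and 8.86 in bexarotene EBs, 1.30-fold lower with bexarotene than untreated. Ndufa4, now counted as a complex IV subunit, measured 9.06, 8.97 and 8.75 on these arrays. Ndufb7, a complex I subunit of the intermembrane space side, measured 8.63, 8.56 and 8.34. Cox7a1 and Uqcrq, both already lower in untreated EBs than on the ES cell array, were lower again by 0.29 and 0.26 with bexarotene. In the other direction, the highest differences were 0.15 for the assembly factor Ndufaf2, 0.15 for Ndufb11, 0.14 for Uqcrb, 0.13 for Uqcrc1 and 0.12 for Ndufa2. The 3 probe sets of Uqcrb gave 0.08, 0.14 and 0.24, the widest spread in this comparison, so the order of these genes is uncertain. A dimmer probe set of Cox7a2l, not the one chosen, lay at -0.28.

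**Figure D3:**
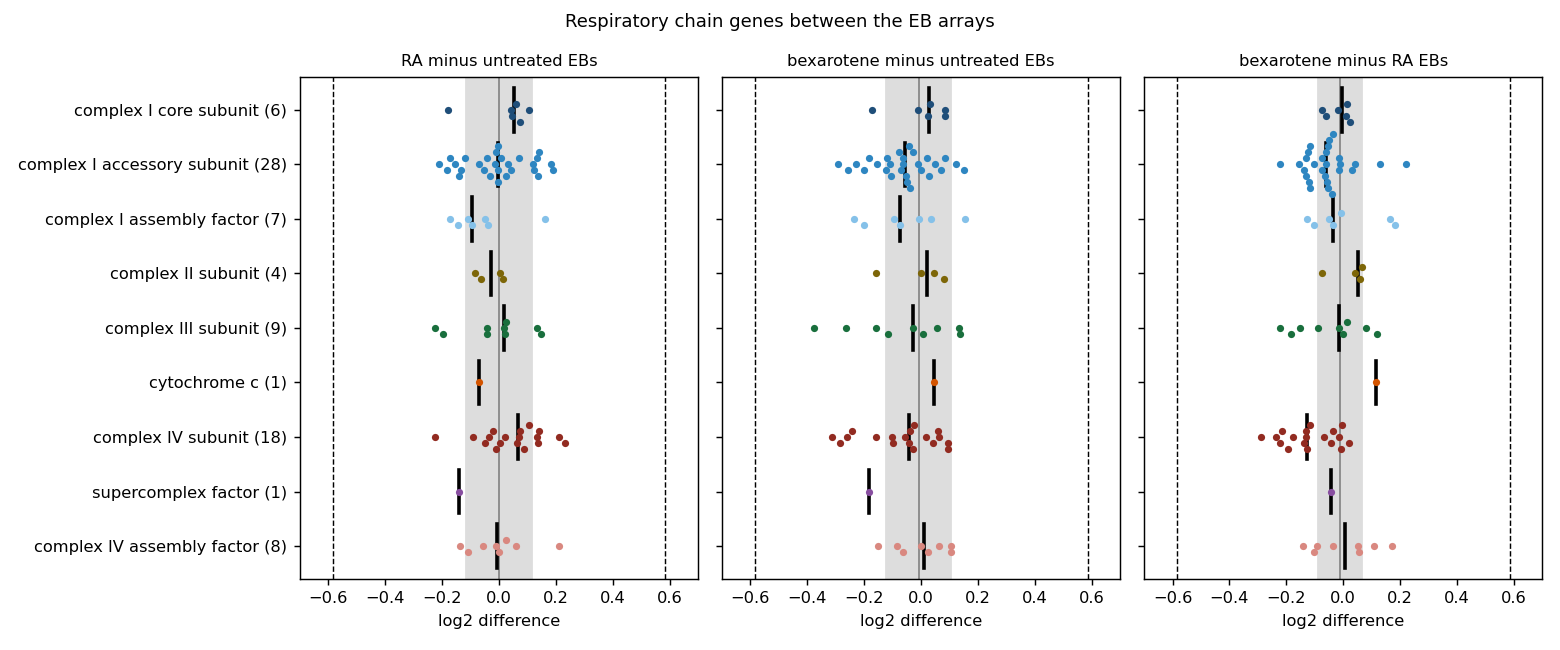
Differences in log2 signal (horizontal axis) by complex (vertical axis) for RA against untreated EBs, bexarotene against untreated EBs and bexarotene against RA, 1 point per gene, with black bars at group medians and the grey line and band at the median and quartiles of all genes. No point passes the dashed 1.5-fold lines. In the panel of bexarotene against RA, 17 of 18 complex IV subunits, some of them dim, lie below 0, against 54.0% of all genes.

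Set directly against RA, bexarotene gave lower signals for most members by small amounts. At 1.5-fold, 0 members were higher and 0 lower, against 0.196% and 0.296% of all genes. At 1.2-fold, 0 were higher, against 2.26%, and 1 was lower, against 3.70%. The dim probe set of Cycs, not the one chosen, was higher by 0.37. The median spread between probe sets of 1 gene was 0.05 here and the widest was 0.28. Of 82 genes, 61 (74.4%) were lower with bexarotene than with RA, against 54.0% of all genes, and the median was -0.05 against -0.01. The doses and the ligands differ at once, so their parts cannot be told apart.

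Cox7a1 was the member past 1.2-fold, at 8.11 with RA and 7.82 with bexarotene. Cox4i1 followed at 9.70 and 9.46, and Ndufa4, Ndufb7 and Uqcrq each differed by -0.22. Complex IV subunits were lower with bexarotene in 17 of 18 cases, against 54.0% of all genes, with a median of -0.13. The 18 include the isoforms Cox7b2, Cox8b, Cox6a2 and Cox8c, which lay near or below the array median and may hold little signal. Highest above 0 were Ndufb2, a small complex I subunit, at 0.22 and Ndufaf5 at 0.18. Next were Cox10, an enzyme on the path to heme A, at 0.17, Ndufaf6 at 0.16 and Ndufb3 at 0.13. The bexarotene array was the lowest of the 4 for 39 of 82 members (47.6%), against 21.4% of all genes. For complex IV subunits that was so in 11 of 18, and for complex I subunits in 18 of 34. The ES cell array was the lowest for 11.0% of members, against 32.9% of all genes. More members were therefore lowest on some EB array, which raises the share for each EB array and makes these shares hard to compare.

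Isoforms of the same subunit were set side by side, since several have a muscle form and a common form. No EB array showed a muscle form above its ES cell level, except Cox6a2 in RA EBs, at 6.69 against 6.67. Cox7a1 was lower by 0.73 in untreated EBs, and its common counterpart Cox7a2, at 9.86 in ES cells, 9.56 in untreated EBs, 9.51 in RA EBs and 9.32 in bexarotene EBs, was lower by 0.30. Cox6a2 measured 6.67, 6.48, 6.69 and 6.58, close to the array median, and Cox6a1 measured 10.47, 10.16, 10.39 and 10.17. Cox8b measured 6.05, 5.93, 5.90 and 5.83, below the array median on each array, while Cox8a, the common form, measured 11.63, 11.45, 11.51 and 11.51. Cox8c, a testis form, lay between 6.56 and 6.83.

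Over 9 cardiac and skeletal muscle markers, the summed signal on the log2 scale came to 10.02 in ES cells, 10.94 in untreated EBs, 10.10 in RA EBs and 10.21 in bexarotene EBs, and 3, 4, 4 and 5 of the 9 lay below the array median. Their part in the isoform values was not tested. In untreated EBs against ES cells, 3 of the 9 (Myh7, Actc1 and Myl7) were higher by 1.5-fold, against 11.0% of all genes. Another 3 (Ckm, Myog and Ckmt2) lay below 0.

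The pair Ndufa4 and Ndufa4l2 parted most. Ndufa4 was lower by 0.40 in untreated EBs and Ndufa4l2 higher by 0.54, so the gap between their differences was 0.94. Cox4i2, the oxygen-responsive form of subunit IV, measured 7.93 in ES cells, 7.74 in untreated EBs, 7.81 in RA EBs and 7.68 in bexarotene EBs, a smaller drop than that of Cox4i1, which measured 10.10, 9.56, 9.70 and 9.46. Cox6b1 and Cox6b2 were lower by 0.14 and 0.20 in untreated EBs. Cox7b measured 11.96, 11.81, 11.83 and 11.85, and Cox7b2 stayed between 4.48 and 4.61. Cox7a2l, which links complexes III and IV into supercomplexes, measured 8.15, 8.23, 8.09 and 8.05, and its small positive difference in untreated EBs turned to -0.01 with quantile normalization.

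**Figure D4:**
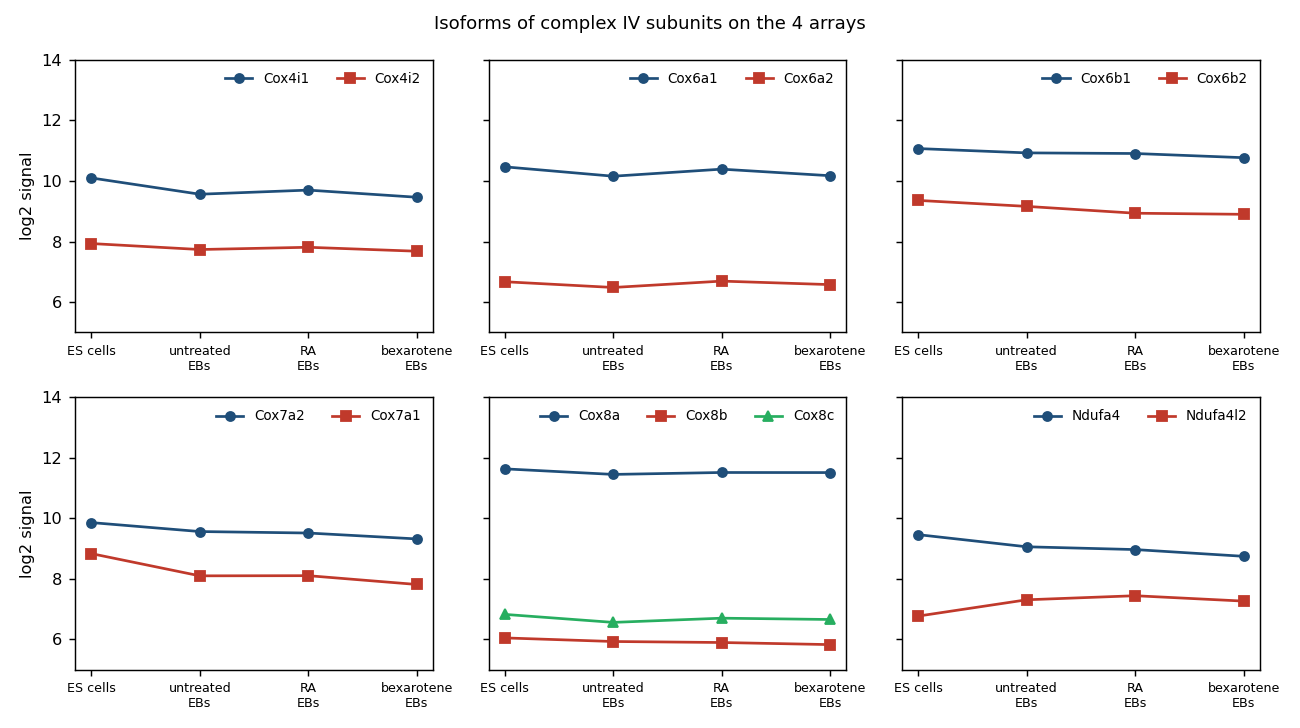
Log2 signal (vertical axis) on the 4 arrays (horizontal axis) for isoforms of complex IV subunits and for Ndufa4 and Ndufa4l2, 1 panel per subunit and 1 line per isoform. Ndufa4 steps down and Ndufa4l2 steps up from ES cells to EBs, while Cox8b stays between 5.83 and 6.05.

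Promoter sequence was read for the members in the RefSeq table, which covers 250 bases before to 50 bases after the start on the GRCm38.p6 build and held 67 windows for 65 of the 82 genes. The stretches shown first are the 100 bases before the start of the 4 genes past 1.5-fold that the table holds. They are Ndufb6 at chr4:40279422-40279521 on the minus strand, Cox5a at chr9:57521132-57521231 on the plus strand, Cox7a1 at chr7:30184071-30184170 on the plus strand and Uqcr10 at chr11:4704345-4704444 on the minus strand. Capitals mark the Sp1 letters GGGCGG on either strand.
Ndufb6: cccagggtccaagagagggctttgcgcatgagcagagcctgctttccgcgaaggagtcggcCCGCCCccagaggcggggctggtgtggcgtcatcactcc
Cox5a: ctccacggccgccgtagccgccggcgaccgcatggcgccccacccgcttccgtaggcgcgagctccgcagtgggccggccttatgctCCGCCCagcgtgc
Cox7a1: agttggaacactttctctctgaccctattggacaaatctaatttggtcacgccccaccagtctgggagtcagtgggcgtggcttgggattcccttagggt
Uqcr10: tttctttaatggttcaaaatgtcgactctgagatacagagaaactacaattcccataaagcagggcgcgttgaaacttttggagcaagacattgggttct
Ndufb6 and Cox5a each hold an Sp1 match in this stretch, and Cox7a1 and Uqcr10 hold none there.

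The NRF1 core CGCATGCG, the letters bound by nuclear respiratory factor 1, a known activator of respiratory chain genes, was found on either strand in 8 of the 67 windows (11.9%), against 1.87% of all 32851 windows and 2.70% of the 19116 windows of genes measured here. The 40 bases around the match are shown for 6 of these genes, with the core in capitals, to let the sites be compared. They are Cox6a1 at chr5:115349096-115349135 on the minus strand, Cycs at chr6:50566607-50566646 on the minus strand, Ndufa11 at chr17:56717687-56717726 on the plus strand, Ndufa8 at chr2:36049324-36049363 on the minus strand, Ndufaf4 at chr4:24897955-24897994 on the plus strand and Uqcr11 at chr10:80406803-80406842 on the minus strand.
Cox6a1: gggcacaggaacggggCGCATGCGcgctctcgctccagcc
Cycs: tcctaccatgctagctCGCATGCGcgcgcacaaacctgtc
Ndufa11: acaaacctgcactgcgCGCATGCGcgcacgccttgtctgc
Ndufa8: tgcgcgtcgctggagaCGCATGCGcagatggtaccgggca
Ndufaf4: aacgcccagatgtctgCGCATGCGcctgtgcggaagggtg
Uqcr11: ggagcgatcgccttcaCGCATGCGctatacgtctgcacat
All 8 genes with the core were lower in untreated EBs than on the ES cell array, with a median difference of -0.33. Of the 57 genes without it, 45 were lower, with a median of -0.15. Over all genes, 56.2% were lower. The same split is given for the other motifs below, and a part of the letters in the differences was not tested. A match describes letters in a window and does not show binding.

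The YY1 letters AAGATGGC, known from housekeeping promoters, were present in 9 windows (13.4%), against 2.75% of all windows and 3.19% of the windows of measured genes. In 8 of these 9 the match lay in the first 50 bases after the start on the strand of the gene, against 284 of 567 (50.1%) such matches in all windows. Stretches around the match are shown for 6 genes, with the match in capitals, to let the sites be compared. They are Ndufa3 at chr7:3617387-3617410 on the plus strand, Ndufa9 at chr6:126849100-126849123 on the minus strand, Ndufc1 at chr3:51408918-51408941 on the minus strand, Ndufs6 at chr13:73328434-73328457 on the minus strand, Ndufs7 at chr10:80249465-80249488 on the plus strand and Cox10 at chr11:64079436-64079459 on the minus strand.
Ndufa3: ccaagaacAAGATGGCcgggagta
Ndufa9: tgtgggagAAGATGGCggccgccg
Ndufc1: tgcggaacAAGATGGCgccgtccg
Ndufs6: tcaccggcAAGATGGCggcggtgc
Ndufs7: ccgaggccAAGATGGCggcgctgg
Cox10: gggctagcAAGATGGCggcgccca
The matched letters contain an ATG, and whether this is a start codon was not examined. The ETS letters CCGGAAGT, which GABPA binds, were present in 7 windows (10.4%), against 3.89% of all windows and 5.42% of those of measured genes. The Sp1 letters were present in 33 (49.3%), against 35.7% and 49.3%. The estrogen-related receptor letters TCAAGGTCA were found in 1 window (1.49%), that of Sdhd, against 0.423% and 0.298%. Lower in untreated EBs were 7 of 9 genes with the YY1 letters and 46 of 56 without, against 56.2% of all genes. Their medians were -0.28 and -0.19. For the ETS letters the counts were 5 of 7 and 48 of 58, with medians of -0.18 and -0.20. For the Sp1 letters they were 24 of 32 and 29 of 33, with medians of -0.20 and -0.18. Sdhd was lower, as were 52 of the 64 genes without the estrogen-related receptor letters. Each motif was searched on both strands, and the motifs were counted separately where they overlap.

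The factors named above were measured on the same arrays and were picked for these motifs. Gabpa measured 10.20 in ES cells, 9.50 in untreated EBs, 9.47 in RA EBs and 9.52 in bexarotene EBs. Nrf1 measured 8.73, 8.56, 8.48 and 8.45, Yy1 measured 10.58, 10.76, 10.71 and 10.68, Esrra, an estrogen-related receptor, measured 7.42, 7.19, 7.23 and 7.35, and Sp1 measured 10.48, 10.22, 10.09 and 10.08. Of these 5, Gabpa alone differed by more than 1.5-fold in untreated EBs. The other estrogen-related receptors, Esrrb and Esrrg, differed by -3.53 and -0.05.

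Other genes of mitochondrial energy use give the setting of the chain. At 1.5-fold in untreated EBs, the counts of each list below stand against 8.52% of all genes lower and 11.0% higher. Of 24 regulators of mitochondrial biogenesis, 5 were lower by 1.5-fold in untreated EBs and 0 higher, with a median of -0.29. Esrrb, an estrogen-related receptor and ES cell factor, had the largest drop at -3.53. Sirt1, a deacetylase, measured 9.65 in ES cells and 8.65 in untreated EBs, and Myc, a growth regulator, differed by -0.77. With RA, 2 of the 24 were higher by 1.5-fold than in untreated EBs, Esrrg, another estrogen-related receptor, by 0.86 and Esrrb by 0.71, and 1 was lower, Myc at -0.87. Over all genes these shares were 2.07% and 2.22%. Esrrb is also among the 8 ES cell markers.

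ATP synthase, the enzyme that uses the proton gradient, had 2 of 20 genes lower by 1.5-fold in untreated EBs, Atp5l at -1.24 and Atpaf1 at -0.62, and 0 higher, with a median of -0.15. Of 34 assembly factors outside the symbol rule, 3 were lower (Fastkd2, Ecsit and Sco1) and 0 higher, with a median of -0.10. Of 77 mitochondrial ribosomal protein genes, 6 were lower and 0 higher, among them Mrps18b at -1.01, Mrpl42 at -0.80 and Mrpl15 at -0.76. Below 0 lay 69 of 77, against 56.2% of all genes, with a median of -0.26. Of 37 import and inner membrane genes, 6 were lower and 0 higher. Chchd10 differed by -2.70, Slc25a31, an ADP/ATP carrier, by -1.34 and Chchd4, which oxidizes imported proteins, by -1.02. Slc25a31 was dim, at 5.34 in ES cells and below the array median on every array, and may hold little signal. The brighter ADP/ATP carriers Slc25a4 and Slc25a5 differed by 0.42 and -0.49, so the carriers did not share a direction. The shares lower by 1.5-fold in the ATP synthase, assembly factor and ribosomal protein lists were near the 8.52% of all genes. None of these 4 lists had a gene past 1.5-fold with either ligand against untreated EBs.

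Genes of fuel supply held larger single differences than the chain itself. Of 12 pyruvate handling genes, 5 were lower by 1.5-fold in untreated EBs and 0 higher, with a median of -0.43. Mpc1, a subunit of the mitochondrial pyruvate carrier, differed by -2.21, Pdk4, a kinase that inhibits pyruvate dehydrogenase, by -1.76, and Pdk1, a kinase of the same family, by -0.78. Pdk2 and Pdk3 of that family went the other way, at 0.47 and 0.36. Of 16 fatty acid oxidation genes, 5 were lower and 0 higher, with Cpt1a, the entry enzyme, at -2.75, Slc25a20 at -1.30 and Acadm at -1.17, and the median was -0.22. Of 13 citric acid cycle genes, 1 was lower, Idh3a at -0.91, and 0 higher, with a median of -0.14. With the ligands, Mpc1 was 0.93 higher with RA and 0.67 higher with bexarotene than in untreated EBs. Pdk4 was 0.61 and 0.63 higher, and Cpt1a 0.71 and 0.57 higher. Of the 12 pyruvate handling genes, 2 were higher by 1.5-fold with each ligand and 0 lower. Their medians were 0.01 and 0.04, and 6 and 5 of them lay below 0. Of the 16 fatty acid oxidation genes, 1 was higher by 1.5-fold with RA, 0 with bexarotene and 0 lower. Their medians were 0.08 and 0.08, with 4 and 5 below 0. Over all genes, 2.07% were higher and 2.22% lower with RA, and 1.48% and 2.15% with bexarotene.

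The list of glycolysis and hypoxia genes had its median above 0, at 0.43. Of 26, 10 were higher by 1.5-fold in untreated EBs, against 11.0% of all genes, and 2 were lower, against 8.52%. P4ha1, a collagen prolyl hydroxylase, was 1.86 higher, Ndrg1 was 1.62 higher and Bnip3, a mitophagy receptor, was 1.21 higher, and none of these 3 is a glycolytic enzyme. The glycolytic enzymes went both ways, with Pfkp, a phosphofructokinase, at -1.11 and Ldhb, a lactate dehydrogenase, at -0.65, the 2 genes past 1.5-fold lower, and with Aldoc, an aldolase, at 0.82 and Pfkl, another phosphofructokinase, at 0.78. With either ligand against untreated EBs, 0 of the 26 passed 1.5-fold in either direction.

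**Figure D5:**
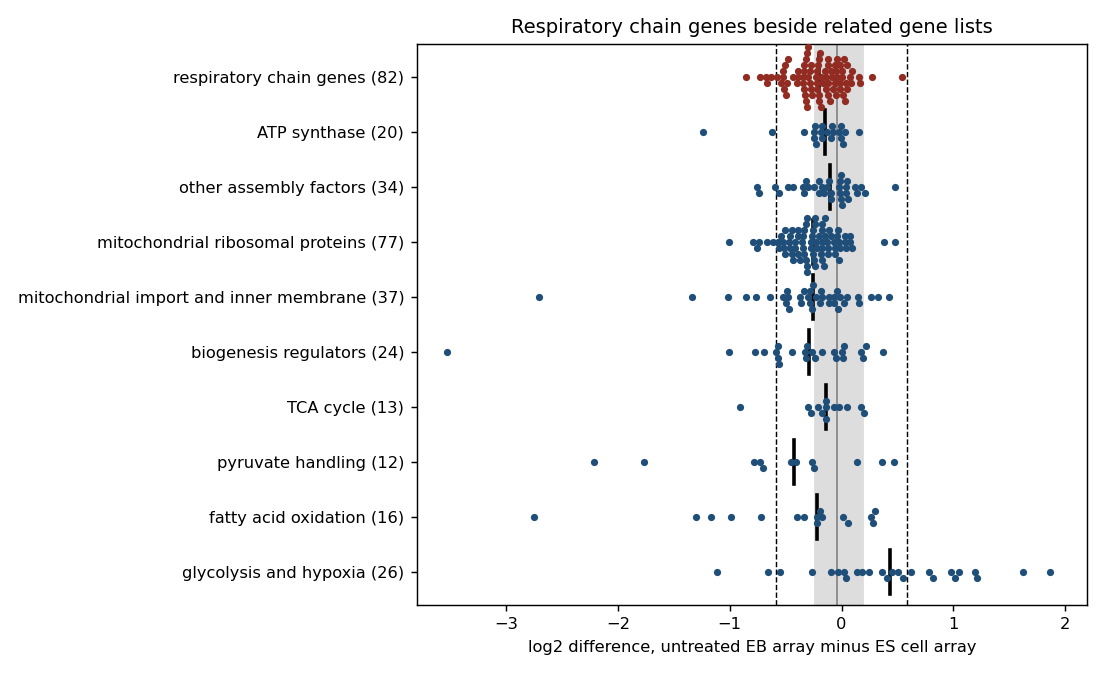
Difference in log2 signal between untreated EBs and ES cells (horizontal axis) for the genes of each related list and of the respiratory chain (vertical axis), 1 point per gene, with black bars at list medians and the grey line and band at the median and quartiles of all genes. The glycolysis and hypoxia list has its median at 0.43, while the medians of the other lists lie below 0.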

How the data were processed

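RNA was amplified with a whole-transcript kit and hybridized to Affymetrix Mouse Gene ST arrays, 1 array for each of 4 conditions. The deposited values are log2 signals, normalized by the authors in Affymetrix Expression Console, with RMA named in the article and GCRMA in the submitters' processing notes; which was used is not settled. The number of arrays limits the precision. Probe sets were named from the platform annotation, which gives 21789 probe sets 1 symbol, 1621 several and 12146 none. The 7 probe sets of member genes that carry several symbols were left out; none of them differed by more than 0.41 in any comparison. The subunits encoded in mitochondrial DNA were not analysed here. All 82 members matched RefSeq gene IDs and 0 symbols changed.

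Differences of log2 signals were computed in Python 3.11.15 with pandas 2.3.3 and numpy 2.4.6, and loess (span 0.3) with statsmodels 0.14.6. The calculation was tested on simulated data. Counts past 1.5-fold and medians are set beside those over all 19938 genes. Members, lists and alternatives were chosen with earlier results of these data known. Named are all members past 1.5-fold, the extremes of each complex and comparison, isoforms, complex II, Cycs and Cyc1, dim members and up to 3 genes of each related list. A few further members, genes of the related lists and the motif factors were named after their values were seen. Alternatives were other fold thresholds, quantile and loess normalization, a filter on low signal, the mean of probe sets, and members without assembly factors.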

Additional observations from a re-analysis of the deposited data

How the results depend on the processing

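With thresholds of 2-fold and 1.2-fold, the number of members lower in untreated EBs than on the ES cell array was 0 and 35 in place of 5, and at 1.2-fold 2 were higher, 5 were lower with bexarotene than untreated and 1 was lower with bexarotene than with RA, all in place of 0; the cause is the threshold itself. Quantile normalization gave 7 lower members in place of 5. The median with RA, -0.0017, was above 0 under loess (0.0318), quantile normalization (0.0250), the mean of probe sets (0.0008) and without assembly factors (0.0074), and the cause was not tested. The median with bexarotene went from -0.0397 to -0.0138 under quantile normalization and -0.0135 under loess. The difference in untreated EBs against ES cells reversed for Cox7a2l under quantile normalization, to -0.0093, and for Cox7b2 under loess, to 0.0017. Apart from these, the counts stayed at their values or within 1.5 times of them, and the medians of the other 3 comparisons kept their sign. Near 0, the sign also changed with RA for Cox6b1 under loess, to 0.0023, and for the median of the citric acid cycle list under quantile normalization, to 0.0319. Neither normalization moved the median of all genes by 0.1 or more. No paired analysis was possible because each condition has 1 array, and for the same reason no array could be left out. The comparison of isoform proteins was not run.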
